A study of Mus musculus with 24 samples.

Results

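The 9 genes described here are the usual markers of bile duct cells and of the ductular reaction: the keratins Krt7, Krt19, Krt23, Krt8 and Krt18, the transcription factor Sox9, and the surface proteins Epcam, Cd24a and Muc1. They were taken as the genes to which the array annotation gave 1 of these symbols and no other. All 9 were found among the 18820 genes measured, each with 1 probe set.

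Bile ducts are lined by cholangiocytes, which carry the keratin pair of simple ducts, keratin 7 and keratin 19, in addition to keratin 8 and keratin 18. Hepatocytes make only keratin 8 and keratin 18, which assemble with each other into the filament network of the cell, and injured hepatocytes are known to make more of both. In chronic liver injury small duct-like cells spread from the portal tracts into the lobule. This is the ductular reaction, and its cells carry keratin 7, keratin 19, Epcam and Sox9.

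Gene expression was measured on 24 one-colour Affymetrix mouse arrays, from whole liver and from primary hepatocytes in culture. Each of 4 genotypes had 3 arrays per tissue, which makes 8 groups. They were NEMOΔhepa, KEAP1Δhepa, NEMOΔhepa/KEAP1Δhepa and the control NEMOf/f, called NEMO knockout, KEAP1 knockout, double knockout and control below, and per the labels all mice were males aged 8 weeks. NEMO holds together the IKK complex, through which NF-kB is switched on, and KEAP1 marks the transcription factor NRF2 for degradation. The deletions were made by Alfp-Cre, a Cre gene under control elements of albumin and alpha-fetoprotein, the second of which are active in the fetal precursor of both hepatocytes and bile duct cells. Whether the bile duct cells of these mice kept NEMO and KEAP1 was not tested. The labels name a floxed NEMO gene in the controls and no floxed KEAP1 gene. Hepatocytes were freed by collagenase perfusion, left to attach overnight in serum and given new medium. The labels call each sample one from a mouse of its genotype but do not say whether any share an animal, so the p-values measure the spread between these samples.

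Of the 24 arrays, 4 stand apart from their group or go against their labels. The array labelled liver control 3 had Nqo1, a target of NRF2, at 9.17 on the log2 scale, where the KEAP1 and double knockout livers had 8.60 to 9.36 and the other liver controls 4.71 and 5.37. Liver double knockout 3 had the fat cell gene Adipoq at 7.17, against 2.26 to 2.58 on the 11 other liver arrays. Hepatocyte double knockout 3 and hepatocyte control 1 had the female transcript Xist at 9.76 and 9.65 in a series labelled as male, against 2.98 or less on the 22 other arrays. The main results that rest on these arrays are given with and without them. Ikbkg, which encodes NEMO, was at 6.01 to 6.60 on the 12 NEMO and double knockout arrays and at 6.40 to 7.20 on the 12 others. The 6.40 was on liver control 3, and the next lowest of those others was 6.63, on hepatocyte control 2. Slc7a11 was at 9.29 on liver control 3, against 2.63 and 2.42 on the other liver controls. It was at 7.82 to 8.53 in the KEAP1 knockout livers and at 9.62 to 10.23 in the double knockout livers. In hepatocytes Nqo1 varied between controls 1 to 3, at 7.77, 5.00 and 6.63, against 8.07 to 8.65 in the KEAP1 knockout. Slc7a11 was at 2.98 to 3.34 in those controls, against 4.99 to 6.43 in the KEAP1 knockout hepatocytes. Keap1 was at 5.38 to 5.94 on the 12 KEAP1 and double knockout arrays and at 5.81 to 6.62 on the others, and the position of either probe set relative to the deleted exons was not examined. Hepatocyte markers averaged 11.5 to 12.1 over the 24 arrays. They were high in both tissues, so they cannot tell liver from cultured hepatocytes.

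All values below are log2 expression values, 1 unit being a doubling, and changes are differences of group means ± the standard error of the limma fit, with n = 3 arrays a group. A change was called at a p under 0.05 after Benjamini-Hochberg adjustment over all 18820 genes. In whole liver, fewer cells of a type and less RNA in each cell cannot be told apart. The comparisons with control share the same 3 control arrays.

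The keratins of hepatocytes, Krt8 and Krt18, were the members called in cultured hepatocytes. Both rose there in the NEMO knockout and in the double knockout, and neither was called in the KEAP1 knockout. In the NEMO and double knockout livers neither was called with all arrays, and both were without 1 control array. Both genes lie in the type II keratin cluster region of chromosome 15 (GRCm38.p6), Krt8 at 15:101996711-102004342 and Krt18 at 15:102028216-102032026. Krt18 is the one type I keratin gene of that cluster, the other type I genes lying on chromosome 11. Because the pair moved together, the 250 bases before each annotated start are shown 5′ to 3′ on the gene's own strand, from RefSeq on build GRCm38.p6. Krt8 is on the minus strand at chr15:102004343-102004592 and Krt18 on the plus strand at chr15:102027966-102028215.
Krt8: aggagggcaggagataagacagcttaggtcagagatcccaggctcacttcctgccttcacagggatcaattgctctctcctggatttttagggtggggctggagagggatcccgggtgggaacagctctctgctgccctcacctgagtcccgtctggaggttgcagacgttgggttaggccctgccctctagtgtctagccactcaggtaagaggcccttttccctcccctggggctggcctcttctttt
Krt18: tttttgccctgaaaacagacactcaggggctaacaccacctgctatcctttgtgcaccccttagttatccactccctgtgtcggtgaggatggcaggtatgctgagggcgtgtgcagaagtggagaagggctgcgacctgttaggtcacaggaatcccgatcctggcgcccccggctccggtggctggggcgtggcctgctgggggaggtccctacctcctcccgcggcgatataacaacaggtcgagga
A search of both windows found none of 5 motifs. These were the TATA box (TATAAA, gene strand only, in 7.59% of 32851 mouse promoter windows of that length) and, on both strands, the AP-1 site (TGANTCA, in 6.75%), the core of the antioxidant response element bound by NRF2 (TGACNNNGC, in 10.2%), the TEAD site (GGAATG, in 12.6%) and the NF-kB consensus (in 3.9%). A match to the AP-1 site and one to the antioxidant element can share letters, and a window without a match says nothing of the factor.

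Krt8, the type II partner of the pair, was measured in hepatocytes at 10.32, 9.75 and 10.12 in the NEMO knockout, at 9.47, 9.36 and 9.44 in the KEAP1 knockout, at 10.12, 10.22 and 10.08 in the double knockout, and at 9.36, 9.10 and 9.14 in the control. Every NEMO and double knockout culture lay above every KEAP1 knockout and control culture. Krt18, the type I partner, was at 10.29, 9.83 and 10.09 in the NEMO knockout, at 9.59, 9.43 and 9.65 in the KEAP1 knockout, at 10.28, 10.57 and 10.19 in the double knockout, and at 9.55, 9.71 and 9.46 in the control. The separation was the same, with the lowest NEMO knockout culture close to the highest control.

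In hepatocytes Krt8 rose by 0.86 ± 0.12 in the NEMO knockout (limma adjusted p = 0.000782) and by 0.94 ± 0.12 in the double knockout (limma adjusted p = 0.000264), which are 1.82-fold and 1.92-fold. Krt18 rose by 0.77 ± 0.12 in the double knockout (limma adjusted p = 0.00132). In the NEMO knockout Krt18 rose by 0.50 ± 0.12 (limma adjusted p = 0.0298), a call that was lost when any of 4 of the 6 arrays was left out (NEMO knockout 1 or 3, control 1 or 3), with adjusted p reaching 0.133. It was also lost when the arrays in doubt were dropped (0.0622). Without those arrays Krt8 rose by 0.94 ± 0.13 in the NEMO knockout (limma adjusted p = 0.00117) and by 1.05 ± 0.14 in the double knockout (limma adjusted p = 0.000649). Krt18 then rose by 0.84 ± 0.15 in the double knockout (limma adjusted p = 0.00351). With all arrays Krt8 and Krt18 were the 2 of 9 members called in the NEMO knockout, where 6.65% of all genes were called, and the 2 of 9 called in the double knockout, where 9.72% were. In the KEAP1 knockout limma called 0 of 9 members (0 at an unadjusted p under 0.05), and 1.87% of all genes were called. Krt8 there differed by 0.22 ± 0.12 and Krt18 by -0.02 ± 0.12.

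The double knockout cultures were also set against each single knockout. Against the KEAP1 knockout, Krt8 rose by 0.71 ± 0.12 (limma adjusted p = 0.00793) and Krt18 by 0.79 ± 0.12 (limma adjusted p = 0.00525), 2 of 9 members with 2.75% of all genes called. The Krt8 call was at 0.0505 without double knockout 2. Without the arrays in doubt Krt8 rose there by 0.74 ± 0.13 (limma adjusted p = 0.00866) and Krt18 by 0.87 ± 0.14 (limma adjusted p = 0.00489). Against the NEMO knockout, limma called 0 of 9 members (2 at an unadjusted p under 0.05, Krt18 and Cd24a), with 3.32% of all genes called. Krt8 differed there by 0.08 ± 0.12 and Krt18 by 0.28 ± 0.12. The interaction, meaning how far the double knockout departs from the sum of the 2 single changes, was called by limma for 0 members in hepatocytes (0 at an unadjusted p under 0.05), with 0.0425% of all genes called.

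Markers of other cells moved with the NEMO and double knockout cultures. The mean of 10 macrophage genes was 6.85 to 7.28 in the NEMO knockout, 5.90 to 6.40 in the KEAP1 knockout, 7.34 to 7.83 in the double knockout and 5.15 to 5.91 in the control. Against control, 9 of these 10 were called higher in the NEMO knockout and 9 in the double knockout, as were 4.61% and 6.73% of all genes. The mean of 10 stellate cell genes was 6.07 to 6.37 in the NEMO knockout, 5.16 to 5.32 in the KEAP1 knockout, 5.86 to 5.95 in the double knockout and 4.51 to 4.93 in the control, with 9 and 8 of 10 called higher in the NEMO and double knockout. In the KEAP1 knockout 2 of 10 in each list were called higher, as were 1.45% of all genes. The part of these cells in the keratin changes was not tested.

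In whole liver Krt8 was at 10.35, 10.34 and 10.76 in the NEMO knockout, at 9.73, 9.38 and 9.90 in the KEAP1 knockout, at 10.32, 10.32 and 10.62 in the double knockout, and at 9.07, 8.90 and 10.14 in the control. Krt18 was at 10.42, 10.36 and 10.76 in the NEMO knockout, at 9.63, 9.22 and 9.90 in the KEAP1 knockout, at 10.20, 10.19 and 10.61 in the double knockout, and at 9.04, 8.96 and 10.09 in the control. For both genes the NEMO and double knockout livers lay above all 3 controls, and the highest control was the array labelled liver control 3.

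With all arrays no call was made in liver for either gene. Krt8 was higher by 1.11 ± 0.27 in the NEMO knockout (limma adjusted p = 0.0611) and by 1.05 ± 0.27 in the double knockout (limma adjusted p = 0.134), without passing the test. Krt18 differed by 1.15 ± 0.27 (limma adjusted p = 0.0570) and by 0.96 ± 0.27 (limma adjusted p = 0.134) in the same livers. Without the array labelled liver control 3 alone, Krt8 rose by 1.50 ± 0.17 in the NEMO knockout (limma adjusted p = 0.000738) and by 1.44 ± 0.17 in the double knockout (limma adjusted p = 0.000456). Krt18 then rose by 1.51 ± 0.19 (limma adjusted p = 0.00152) and by 1.33 ± 0.19 (limma adjusted p = 0.00159). Of the 6 arrays of each comparison left out in turn, only liver control 3 gave a call of either gene. The highest limma adjusted p in the NEMO knockout was 0.248 for Krt8 and 0.231 for Krt18, without NEMO knockout 3. In the double knockout it was 0.375 for both, without control 2. Without all 4 arrays in doubt Krt8 was also called in the KEAP1 knockout, by 0.69 ± 0.15 (limma adjusted p = 0.0243), and it was at 0.0571 without liver control 3 alone. That array also stood apart in other cells' genes. Its macrophage genes averaged 7.60, where the NEMO and double knockout livers had 7.50 to 7.76 and the other controls 6.44 and 6.37, and its stellate cell genes 7.07, against 6.06 and 6.38 on the other controls. Without the arrays in doubt 8, 1 and 7 of 10 macrophage genes were called higher in the NEMO, KEAP1 and double knockout livers. Of 10 stellate cell genes 8, 4 and 5 were, and of all genes 8.48%, 3.71% and 6.37%. The part of these cells in the keratin values was not tested.

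**Figure D1:**
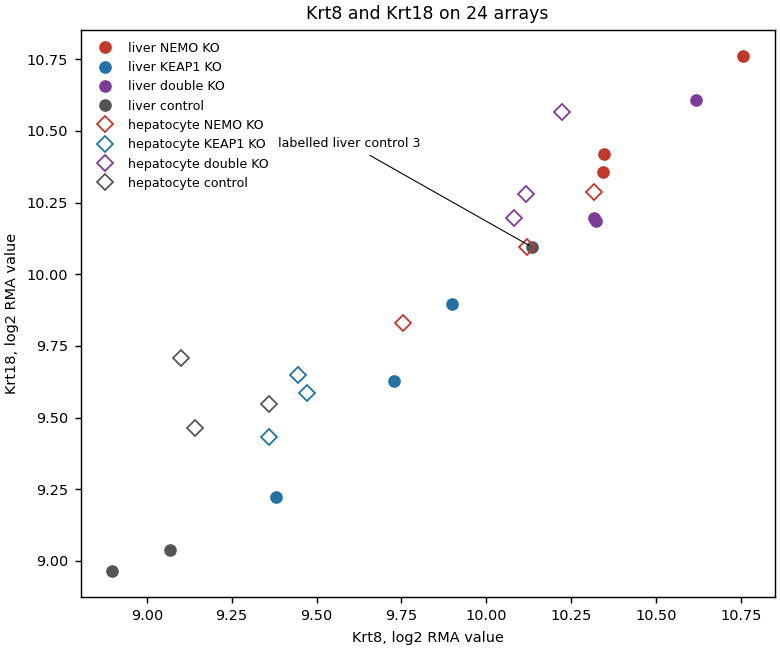
Krt18 (y axis) against Krt8 (x axis), both as log2 expression values, on each of the 24 arrays, with filled circles for liver, open diamonds for hepatocytes and a colour for each genotype. The points lie along a diagonal. Within each tissue the NEMO and double knockout arrays lie above all KEAP1 knockout and control arrays for both genes. The array labelled liver control 3, at 10.14 and 10.09, lies apart from the other liver controls.

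Across the 12 liver arrays Krt8 and Krt18 had a Pearson correlation of 0.992, which describes arrays that share genotype and group and carries no test. By the rule for the genes most alike in liver (the 3 highest correlations among 2046 genes with a mean of at least 5 and a range of at least 1), Krt8 was followed by Krt18, Gja1 (0.975), which encodes the gap junction protein connexin 43, and Hat1 (0.971), a histone acetyltransferase. Krt18 was followed by Krt8, Anxa2 (0.977), a membrane-binding annexin, and Tbx20 (0.969). The same pairs were at 0.967 to 0.991 without liver double knockout 3.

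The keratins of bile duct cells were measured as follows. Krt7 is at 15:101412403-101427806 and Krt19 at 11:100140810-100145926. In liver Krt7 was at 3.81, 3.88 and 4.87 in the NEMO knockout, at 4.02, 4.12 and 5.01 in the KEAP1 knockout, at 4.01, 3.91 and 7.81 in the double knockout, and at 3.67, 3.72 and 3.97 in the control. Krt19 was at 3.74, 4.22 and 4.40 in the NEMO knockout, at 3.99, 4.25 and 4.53 in the KEAP1 knockout, at 3.85, 4.18 and 7.29 in the double knockout, and at 3.63, 3.70 and 3.79 in the control. A single array, liver double knockout 3, held the high value of both genes, and the 2 other double knockout livers lay within the range of the single knockouts.

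Epcam, the epithelial adhesion molecule of duct cells (17:87635979-87651127), had its highest value on the same array. It was at 3.89, 3.61 and 5.08 in the NEMO knockout, at 3.70, 3.97 and 4.95 in the KEAP1 knockout, at 3.98, 3.83 and 6.48 in the double knockout, and at 3.53, 3.69 and 3.59 in the control. Against control, the double knockout livers differed in Krt7 by 1.45 ± 0.79 (limma adjusted p = 0.312), in Krt19 by 1.40 ± 0.65 (limma adjusted p = 0.247) and in Epcam by 1.16 ± 0.61 (limma adjusted p = 0.296). Without liver double knockout 3 these differences were 0.17 ± 0.33, 0.31 ± 0.21 and 0.30 ± 0.41, with adjusted p of 0.854, 0.530 and 0.764. The size of all 3 therefore rested on 1 array.

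In hepatocytes these 3 genes stayed between 2.94 and 3.81 on all 12 arrays. Krt7 was at 3.23 to 3.66 in the NEMO knockout, 2.95 to 3.31 in the KEAP1 knockout, 3.26 to 3.81 in the double knockout and 3.24 to 3.65 in the control. Krt19 was at 3.24 to 3.73 in the NEMO knockout, 3.19 to 3.54 in the KEAP1 knockout, 3.27 to 3.45 in the double knockout and 3.56 to 3.79 in the control. Epcam was at 3.18 to 3.71 in the NEMO knockout, 3.09 to 3.54 in the KEAP1 knockout, 3.22 to 3.34 in the double knockout and 2.94 to 3.16 in the control. None of the 3 was called in any comparison of hepatocytes. Krt7, Krt19 and Epcam also did not reach a value of 5 on 3 arrays in liver or in hepatocytes. At such low array values a change can be understated, which was not tested here.

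**Figure D2:**
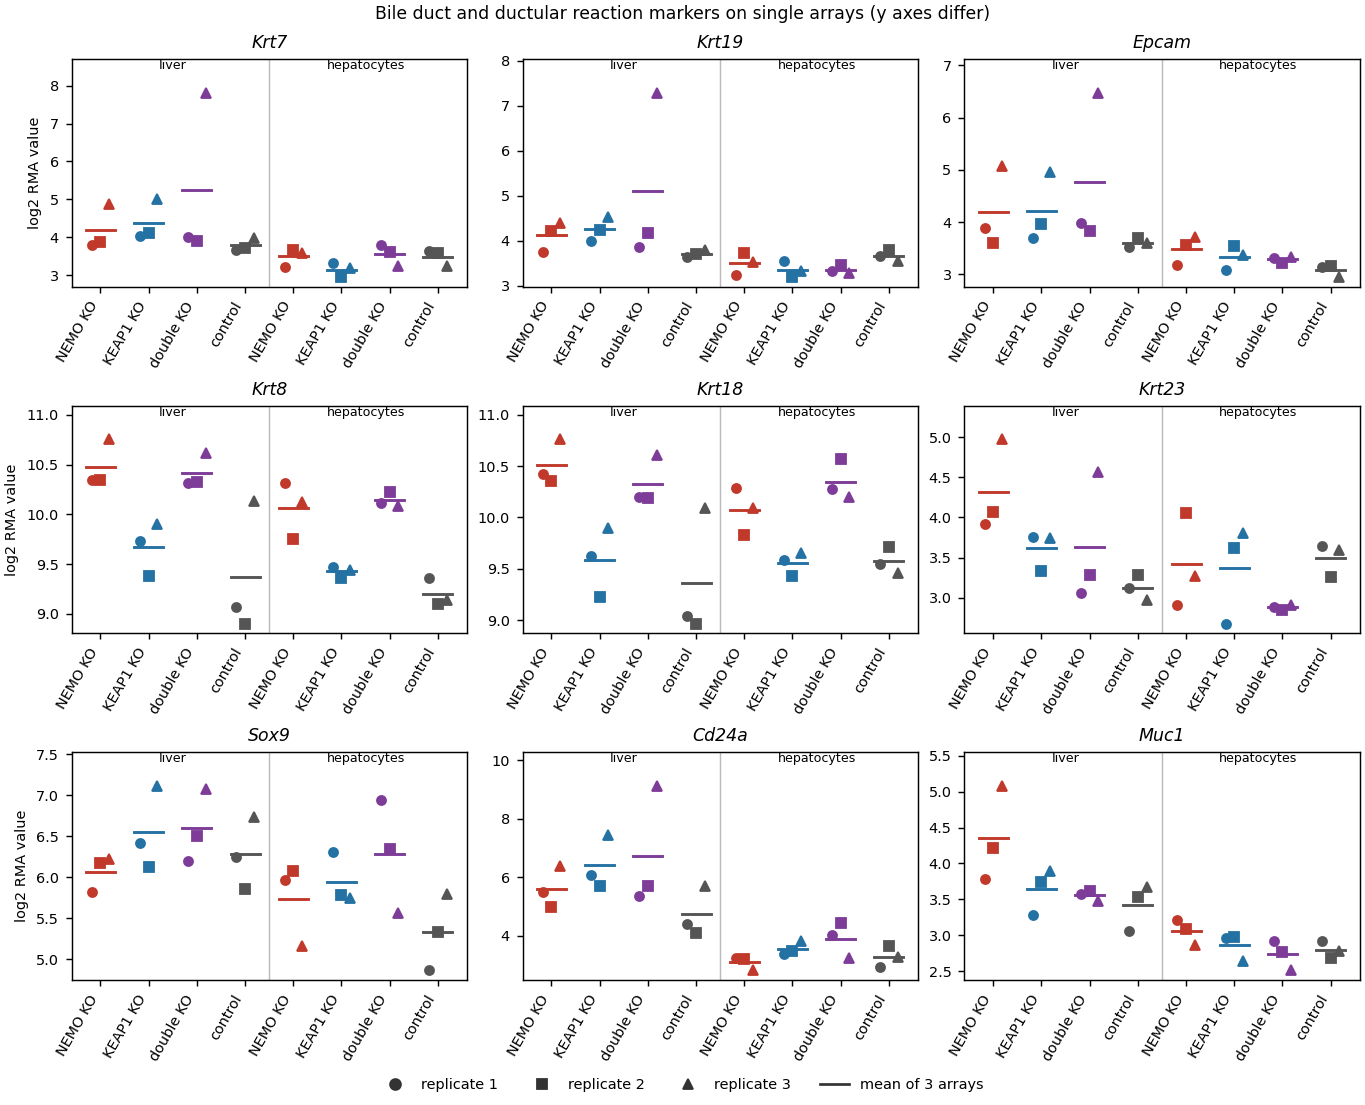
Log2 expression value (y axis, a separate scale for each gene) of the 9 markers on single arrays, by genotype and tissue (x axis), with circles, squares and triangles for replicates 1, 2 and 3 and a line for the mean of 3 arrays. Liver double knockout 3 (purple triangle) stands alone for Krt7 (7.81), Krt19 (7.29) and Epcam (6.48). For Krt8 and Krt18 all NEMO and double knockout arrays lie above all KEAP1 knockout and control arrays of the same tissue.

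Cd24a, a surface glycoprotein of duct and progenitor cells that is also made by several blood cells (10:43579169-43584265), had the widest range over the 12 livers of the 9 members. It was at 5.48, 4.97 and 6.38 in the NEMO knockout, at 6.07, 5.69 and 7.45 in the KEAP1 knockout, at 5.35, 5.71 and 9.12 in the double knockout, and at 4.39, 4.09 and 5.71 in the control. In each knockout the third array was the highest, and each knockout overlapped the control through liver control 3.

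Against control, Cd24a differed by 0.88 ± 0.84 in the NEMO knockout liver (limma adjusted p = 0.616), by 1.67 ± 0.84 in the KEAP1 knockout liver (limma adjusted p = 0.656) and by 2.00 ± 0.84 in the double knockout liver (limma adjusted p = 0.211). Without the 4 arrays in doubt the KEAP1 knockout difference was 2.17 ± 0.46 and was called (limma adjusted p = 0.0192), but with liver control 3 alone left out its adjusted p was 0.260. Without all 4 the double knockout difference was 1.29 ± 0.51 (limma adjusted p = 0.139) and the NEMO knockout difference 1.37 ± 0.46 (limma adjusted p = 0.0768). In hepatocytes Cd24a was at 2.81 to 3.24 in the NEMO knockout, 3.38 to 3.81 in the KEAP1 knockout, 3.24 to 4.42 in the double knockout and 2.93 to 3.66 in the control. Its difference between double knockout and NEMO knockout cultures, 0.81 ± 0.27 (limma adjusted p = 0.139), was 1.14 ± 0.21 without the arrays in doubt and was then called higher (limma adjusted p = 0.0112), where 2.39% of all genes were.

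Krt23, a type I keratin made in injured liver (11:99477973-99493120), was highest in the NEMO knockout livers. It was at 3.91, 4.07 and 4.97 in the NEMO knockout, at 3.76, 3.34 and 3.75 in the KEAP1 knockout, at 3.06, 3.28 and 4.57 in the double knockout, and at 3.12, 3.28 and 2.97 in the control. All 3 NEMO knockout livers lay above all 3 controls, and 2 of the 3 double knockout livers lay at the level of the controls. These are low array values, at which a change can be understated, which was not tested here. The control liver mean, 3.13, lay above that of only 26.8% of genes, and Krt23 did not reach 5 on 3 liver arrays. The 250 bases before its annotated start, on the minus strand at chr11:99493121-99493370, are shown because they held the only match to the NF-kB consensus among the 6 members with a promoter entry (Krt7, Krt23, Krt8, Krt18, Epcam and Muc1). Capitals mark that match, 53 to 44 bases before the start, and it is a match of letters and not a measured site. The Muc1 window matched the TATA box, the antioxidant element core and the TEAD site, and those of Krt7 and Epcam matched none of the 5.
Krt23: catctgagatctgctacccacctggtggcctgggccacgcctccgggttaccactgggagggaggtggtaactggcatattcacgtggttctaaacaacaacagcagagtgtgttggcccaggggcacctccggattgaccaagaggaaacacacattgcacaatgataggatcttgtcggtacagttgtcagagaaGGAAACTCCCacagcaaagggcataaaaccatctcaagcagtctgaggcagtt
Krt23 differed by 1.20 ± 0.36 between NEMO knockout and control livers (limma adjusted p = 0.117), and by 1.12 ± 0.27 without the arrays in doubt, when it was called (limma adjusted p = 0.0200). With liver control 3 alone left out it was not called (1.12 ± 0.41, limma adjusted p = 0.126). Between double knockout and NEMO knockout livers it differed by -0.68 ± 0.36 (limma adjusted p = 0.503), and by -1.15 ± 0.27 without the arrays in doubt, when it was called lower (limma adjusted p = 0.0409), but not with liver double knockout 3 alone left out (limma adjusted p = 0.0790). In hepatocytes Krt23 was at 2.91 to 4.06 in the NEMO knockout, 2.67 to 3.80 in the KEAP1 knockout, 2.85 to 2.91 in the double knockout and 3.26 to 3.64 in the control, and it was called in no comparison there.

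Muc1, the mucin of the apical surface of duct cells (3:89229056-89233381), was likewise highest in the NEMO knockout livers. It was at 3.79, 4.21 and 5.08 in the NEMO knockout, at 3.29, 3.74 and 3.89 in the KEAP1 knockout, at 3.57, 3.61 and 3.48 in the double knockout, and at 3.06, 3.54 and 3.68 in the control. All NEMO knockout livers lay above all double knockout and control livers. These too are low array values. The control liver mean, 3.43, lay above that of only 33.0% of genes, and Muc1 did not reach 5 on 3 liver arrays. Liver double knockout 3, high in Krt7, Krt19 and Epcam, had the lowest Muc1 of its group. The difference between NEMO knockout and control livers was 0.93 ± 0.29 (limma adjusted p = 0.124), and that between double knockout and NEMO knockout livers was -0.80 ± 0.29 (limma adjusted p = 0.267). Without the arrays in doubt these were 1.06 ± 0.32 (limma adjusted p = 0.0509) and -0.77 ± 0.32 (limma adjusted p = 0.275). In hepatocytes Muc1 was at 2.86 to 3.22 in the NEMO knockout, 2.65 to 2.98 in the KEAP1 knockout, 2.51 to 2.92 in the double knockout and 2.69 to 2.92 in the control.

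Sox9, the transcription factor that specifies duct cells and appears in hepatocytes near the portal tract (11:112782210-112787757), differed little in liver. It was at 5.82, 6.17 and 6.22 in the NEMO knockout, at 6.42, 6.12 and 7.12 in the KEAP1 knockout, at 6.20, 6.51 and 7.08 in the double knockout, and at 6.25, 5.86 and 6.74 in the control. The 4 groups overlapped, and the differences from control were -0.21 ± 0.29, 0.27 ± 0.29 and 0.31 ± 0.29 in the NEMO, KEAP1 and double knockout. Without the arrays in doubt they were 0.01 ± 0.25, 0.49 ± 0.25 and 0.30 ± 0.27, and none was called either way.

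In hepatocytes Sox9 was at 5.96, 6.07 and 5.16 in the NEMO knockout, at 6.31, 5.79 and 5.74 in the KEAP1 knockout, at 6.94, 6.34 and 5.56 in the double knockout, and at 4.86, 5.33 and 5.80 in the control. The double knockout differed from control by 0.95 ± 0.34 (limma adjusted p = 0.108). Without hepatocyte double knockout 3, the array with high Xist and the lowest Sox9 of its group, the difference was 1.31 ± 0.32 and was called (limma adjusted p = 0.0190), and that of Cd24a was called too, at 0.94 ± 0.23 (limma adjusted p = 0.0222). In that setting 1946 of 18820 genes were called. For Sox9 and for Cd24a alike, only 1 of the 6 arrays gave a call when left out. Without double knockout 1 the limma adjusted p of Sox9 was 0.351, and without double knockout 2 that of Cd24a was 0.569. Without all arrays in doubt the limma adjusted p was 0.0501 for Sox9 and 0.0659 for Cd24a, and neither was called.

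Counted over the 9 members with all arrays, limma called 0 in each liver comparison. Against control these were 0 in the NEMO knockout (4 at an unadjusted p under 0.05: Krt23, Krt8, Krt18 and Muc1), where 1.33% of all genes were called, 0 in the KEAP1 knockout (0 at an unadjusted p under 0.05), where 0% were, and 0 in the double knockout (3 at an unadjusted p under 0.05: Krt8, Krt18 and Cd24a), where 0.00531% were. The double knockout against the NEMO knockout gave 0 members (1 at an unadjusted p under 0.05, Muc1) and 1.05% of all genes, and against the KEAP1 knockout 0 members (2 at an unadjusted p under 0.05, Krt8 and Krt18) and 0% of all genes. The liver interaction was called for 0 members (2 at an unadjusted p under 0.05, Krt23 and Muc1) and 0.0106% of all genes. Its values ran from -1.17 ± 0.51 (Krt23) to 0.46 ± 1.12 (Krt7). Without the arrays in doubt they ran from -2.25 ± 0.65 (Cd24a) to -0.21 ± 0.35 (Sox9). Then 0 members were called too, the lowest limma adjusted p being 0.0968 (Krt23), with 0.345% of all genes called.

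Without the 4 arrays in doubt, 3 members were called higher in the NEMO knockout liver (Krt23, Krt8 and Krt18, where 8.48% of all genes were), 2 in the KEAP1 knockout (Krt8 and Cd24a, 3.71%) and 2 in the double knockout (Krt8 and Krt18, 6.37%). Between double knockout and NEMO knockout livers 1 was called lower (Krt23, as were 1.54% of all genes). The median change over the 9 members in the NEMO knockout liver was 0.88 with all arrays and 1.06 without those in doubt, against medians over all genes of -0.04 and -0.05. In the double knockout it was 1.05 with all arrays but 0.30 without those in doubt, and in the KEAP1 knockout 0.49 and 0.59. Replicate numbers of the double knockout and control livers met the rule for pairing. With the number as a block Krt8, Krt18 and Cd24a were called higher in the double knockout (3 of 9, where 2.76% of all genes were), with adjusted p of 0.0192, 0.0187 and 0.0327, and both arrays numbered 3 of that comparison are in doubt.

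In the NEMO knockout livers 4 members had all knockout arrays above all controls (Krt23, Krt8, Krt18 and Muc1), as had 10.7% of all genes. In the KEAP1 knockout these were 4 (Krt7, Krt19, Krt23 and Epcam), against 5.19% of all genes. In the double knockout they were 4 (Krt19, Krt8, Krt18 and Epcam), against 8.45%. For Krt7, Krt19 and Epcam in the KEAP1 knockout livers the gap was narrow, with the lowest knockout array at 4.02, 3.99 and 3.70 and the highest control at 3.97, 3.79 and 3.69. In hepatocytes 3 members lay wholly above the controls in the NEMO knockout (Krt8, Krt18 and Epcam, with 11.2% of all genes), 1 in the KEAP1 knockout (Krt8, with 10.1%) and 3 in the double knockout (Krt8, Krt18 and Epcam, with 13.1%). Krt19 lay wholly below them in the KEAP1 knockout (9.21% of all genes), and Krt19 and Krt23 did in the double knockout (12.5%).

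**Figure D3:**
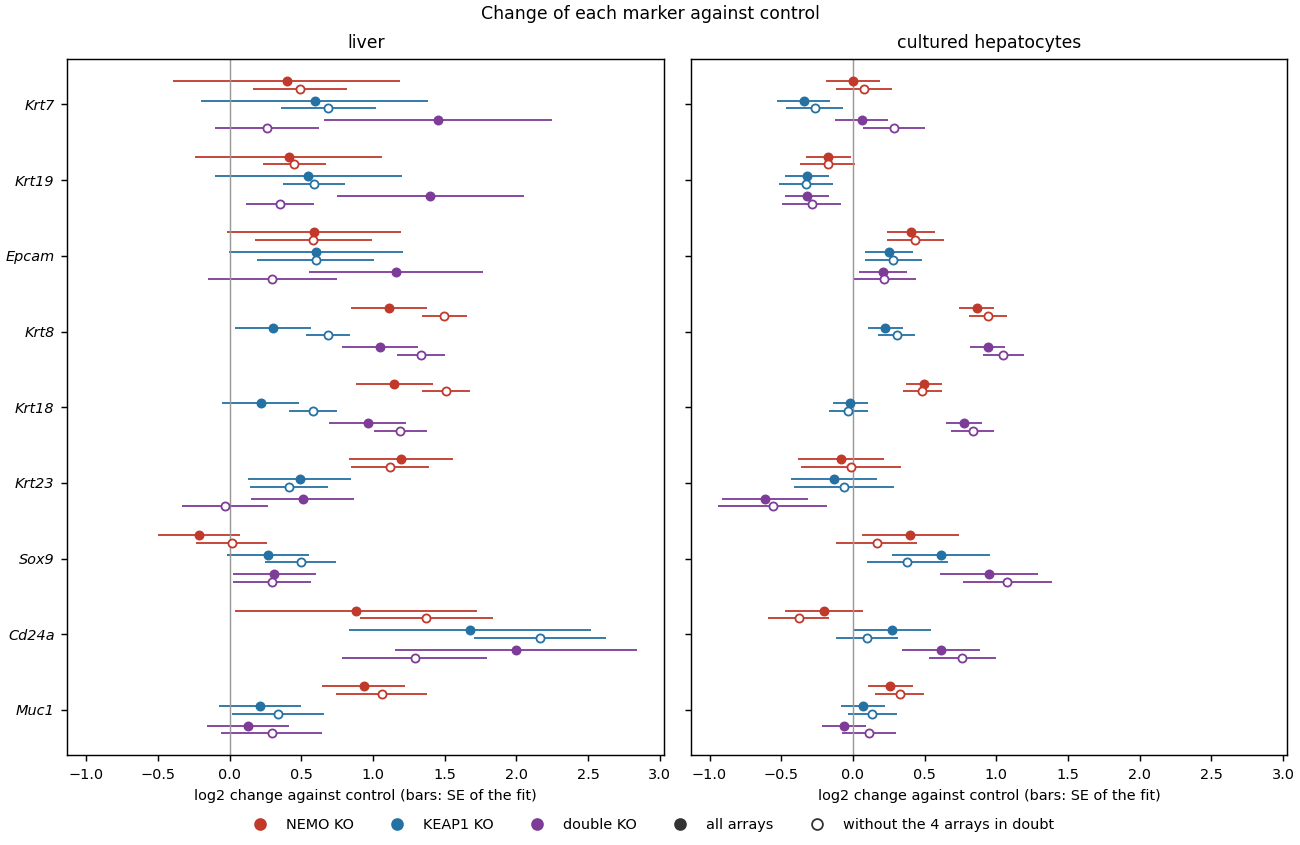
Change of each marker against control on the log2 scale (x axis) in liver (left) and cultured hepatocytes (right), with bars of 1 standard error of the fit, filled points for all arrays and open points without the 4 arrays in doubt. Krt8 and Krt18 lie right of 0 in the NEMO and double knockout of both tissues, and Krt7, Krt19 and Epcam in the double knockout liver move from 1.16 to 1.45 with all arrays to 0.26 to 0.35 without those in doubt.

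Whether a knockout's change differed between the tissues was tested directly, with the hepatocyte change subtracted from that of liver. For the NEMO, KEAP1 and double knockout 0 of 9 members were called by limma, with 1, 0 and 2 at an unadjusted p under 0.05, and 0.0691%, 0% and 0.0691% of all genes were called. For Krt8 that difference was 0.25 ± 0.31 in the NEMO knockout and 0.11 ± 0.31 in the double knockout, and for Krt18 it was 0.65 ± 0.32 and 0.19 ± 0.32. Without the arrays in doubt that of Krt18 in the NEMO knockout was 1.03 ± 0.23 (limma adjusted p = 0.0895). Control hepatocytes were also set against control livers, where 0 members were called (3 at an unadjusted p under 0.05: Sox9, Cd24a and Muc1) and 5.13% of all genes were. Krt7, Sox9, Epcam, Cd24a and Muc1 were lower on every control culture than on every control liver, as were 10.0% of all genes, and Krt19 differed by -0.04 ± 0.51. With all arrays Sox9, Cd24a and Muc1 differed by -0.952, -1.445 and -0.632. Without those in doubt they differed by -0.491, -0.776 and -0.570, and 0 members and 3.06% of all genes were called.

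The arrays numbered 3 were high in liver across the members. In the NEMO knockout livers the third array was the highest of its 3 for 9 of 9 members, as for 32.9% of all genes. In the KEAP1 knockout it was so for 8 of 9, as for 33.7% of all genes, in the double knockout for 8 of 9, as for 34.0%, and in the control for 7 of 9, as for 33.4%. Other duct genes did so for 20, 17, 21 and 11 of 28. Stellate cell genes were highest there for 7, 6, 8 and 8 of 10 and hepatocyte markers for 0, 4, 1 and 0 of 14. In the titles the number 3 goes with a code, 09, whose meaning is not given, and the part of that in these values was not tested.

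Liver double knockout 3 lay more than 1 log2 unit above all 11 other liver arrays for 4 of 9 members (Krt7, Krt19, Epcam and Cd24a), and for 1.58% of all genes. The array was singled out with its high Krt7 already known, so this count describes it and is no test. Of 28 other duct genes 8 did the same, chosen here after their values were seen. Bicc1, an RNA-binding protein of epithelial tubules, was at 9.29 on this array and at 5.27 to 7.33 on the others. Pkhd1, the fibrocystin gene of duct cilia, was at 7.17, against 4.82 to 6.06, and Cldn4, a tight junction claudin, at 6.27, against 2.91 to 4.23. The other 5 were Cldn7, St14, Itgb4, Ehf and Ncam1.

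Genes of other tissues were high on the same array. Of 10 fat cell genes 6 met the same rule, including Fabp4 at 8.91 against 4.89 to 6.02, and the mean of that list was 6.79 on this array and 4.19 to 4.76 on the 11 others. The mesothelial gene Upk1b was at 5.26, against 2.94 to 3.78, and the mean of 8 mesothelial genes was 4.62, against 3.41 to 3.87. Ankrd1, a target of the YAP coactivator, was at 9.54, against 2.77 to 5.66, and Acta2, the smooth muscle actin, at 9.83, against 5.56 to 8.08. Of 14 hepatocyte markers and 10 macrophage genes 0 met the rule. The part of these tissues in the values of Krt7, Krt19, Epcam and Cd24a was not tested.

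**Figure D4:**
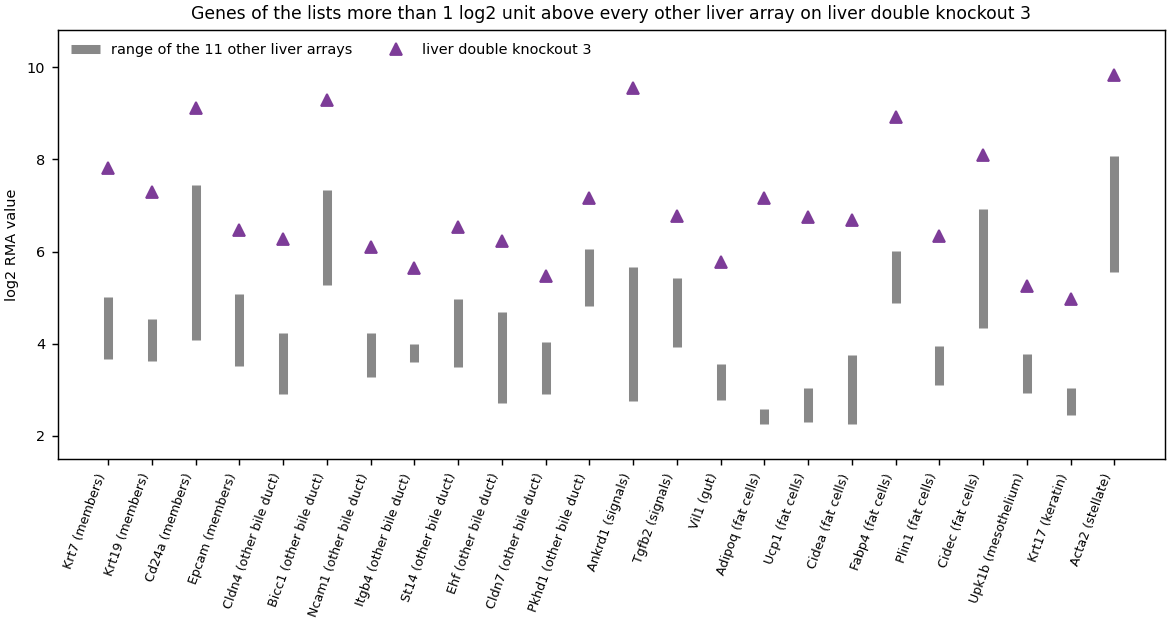
Log2 expression values (y axis) of the 24 listed genes (x axis, with the list in brackets) that lay more than 1 unit above every other liver array on liver double knockout 3, drawn as a purple triangle, with the range of the 11 other liver arrays as a grey bar. Duct genes and fat cell genes are both present, the widest gap being that of Adipoq, at 7.17 against a highest other value of 2.58.

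Over the 12 liver arrays Krt7 and Krt19 had a correlation of 0.978, which was 0.816 without liver double knockout 3, and Krt7 and Epcam had 0.961 and 0.954. Sox9 and Muc1 had -0.10. The genes most like Krt7 were Itga3, Cav1 and Pkhd1 (0.964 to 0.967), and those most like Epcam were Cplane1, Pkhd1 and Jag1 (0.922 to 0.966). Without liver double knockout 3 these were 0.777 to 0.908 for Krt7 and 0.805 to 0.914 for Epcam. Krt7 and Muc1 had 0.081 with that array and 0.646 without it. For Krt19 they were Ptpn14, Fabp4 and Itga3, and the correlation with Fabp4, a fat cell gene, was 0.955 with that array and 0.493 without it. Cd24a was nearest to Fmo2, Cav1 and Jag1, Krt23 to Bmp4, Rhbdf1 and Samd9l, Muc1 to Morf4l2, Mthfd2 and Itga5, and Sox9 to Eid3, Lpar6 and Glis3.

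The other genes of the duct epithelium, 28 measured of a list of 32, gave few calls in liver with all arrays. In the NEMO knockout liver 1 was called higher and 0 lower with all arrays, and 8 and 1 without those in doubt (8.48% of all genes were then called higher and 3.55% lower), with a median of 0.45 and 0.47. The 1 was Slc10a2, the bile acid uptake carrier of duct cells, at 1.14 ± 0.21 (limma adjusted p = 0.0245). In the KEAP1 and double knockout livers limma called 0 with all arrays (4 and 8 at an unadjusted p under 0.05), and 5 higher and 1 lower in each without those in doubt, where 3.71% and 6.37% of all genes were called higher. Anxa13, an annexin of epithelia, led those in the double knockout, higher by 3.89 ± 0.20 and Onecut1, a factor of duct development, lower by -2.75 ± 0.42. On single arrays Anxa13 was at 7.70, 7.54 and 7.25 in the double knockout livers and at 3.75, 3.70 and 7.50 in the controls, and Onecut1 at 6.50, 6.55 and 6.51 in the double knockout livers and at 9.10, 9.45 and 6.50 in the controls. For both genes liver control 3 alone of the controls lay at the level of the double knockout. Whether Anxa13 and Onecut1 changed in duct cells or in hepatocytes was not tested.

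In hepatocytes 6 of the 28 were called higher and 1 lower in the NEMO knockout, 2 and 0 in the KEAP1 knockout, and 5 and 1 in the double knockout. The shares over all genes, higher and then lower, were 4.61% and 2.05% in the NEMO knockout, 1.45% and 0.425% in the KEAP1 knockout, and 6.73% and 2.99% in the double knockout. Anxa13 rose by 4.35 ± 0.21 in the KEAP1 knockout (limma adjusted p = 3.09e-07) and by 4.78 ± 0.21 in the double knockout (limma adjusted p = 6.24e-08). Krt7, Krt19 and Epcam were at 3.81 or less on every hepatocyte array. Lgals3, the galectin-3 gene, which macrophages also make, rose by 2.29 ± 0.28 in the NEMO knockout, by 1.24 ± 0.28 in the KEAP1 knockout and by 2.94 ± 0.28 in the double knockout, and its call in the KEAP1 knockout was lost without the arrays in doubt. The list's median change was 0.07, -0.02 and -0.02 in these 3 comparisons, against -0.02, 0.00 and -0.03 over all genes.

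Of 22 measured genes of the Notch, YAP and TWEAK signals that act in the ductular reaction, 2 were called higher and 1 lower in the NEMO knockout liver. Over all genes 1.01% were called higher and 0.319% lower there. Tnfrsf12a, the TWEAK receptor, rose by 1.53 ± 0.32 and Hgf, the hepatocyte growth factor, by 1.08 ± 0.17, and Met, the receptor of that factor, fell by 0.51 on the log2 scale. The same 3 were called in the same directions in NEMO knockout hepatocytes, Hgf by 2.21 ± 0.25, Tnfrsf12a by 1.14 ± 0.20 and Met by -0.42 ± 0.10. In these cultures 4.61% of all genes were called higher and 2.05% lower. Stellate cells make Hgf, their genes were higher in those cultures as given above, and their part in its change was not tested. In the double knockout liver limma called 0 of the 22 (6 at an unadjusted p under 0.05), and in double knockout hepatocytes 1 was (Hgf, by 1.80 ± 0.25). The KEAP1 knockout gave 0 in liver (2 at an unadjusted p under 0.05) and 1 in hepatocytes (Hgf, by 1.27 ± 0.25). Of all genes 6.73% and 1.45% were called higher in the double and KEAP1 knockout cultures, and 0% in the livers of either genotype.

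Of 10 other keratins of simple and stratified epithelia limma called 0 against control in any of the 3 knockouts of either tissue, with all arrays or without those in doubt, and 0 to 2 of them had an unadjusted p under 0.05. Among 10 other intermediate filaments and keratin partners, Lmna, which encodes lamin A, was called in the NEMO knockout liver at 0.69 ± 0.13 (limma adjusted p = 0.0260). Without the arrays in doubt 7, 3 and 4 of those 10 were called higher in the NEMO, KEAP1 and double knockout liver, as were 8.48%, 3.71% and 6.37% of all genes, with Vim, the vimentin of mesenchymal cells, at 1.98 ± 0.30, 1.38 ± 0.30 and 1.81 ± 0.33. Vim also rose in hepatocyte cultures, by 2.19 ± 0.20 in the NEMO knockout, 1.45 ± 0.20 in the KEAP1 knockout and 2.82 ± 0.20 in the double knockout.

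Genes of other cells in a liver sample were called as follows with all arrays. In the 3 liver comparisons with control, limma called none of the 14 hepatocyte, 8 mesothelial, 10 fat cell, 6 B cell, 9 neutrophil, 4 erythroid and 9 pancreas and gut genes. At an unadjusted p under 0.05 these lists held 0 to 2 in the NEMO and KEAP1 knockout livers and 1 to 5 in the double knockout livers, the 5 being hepatocyte markers. Macrophage genes gave 1 (Gpnmb, by 2.95 ± 0.60) and stellate cell genes 2 (Reln, by 0.93 ± 0.14, and Cygb, by 1.81 ± 0.39), all in the NEMO knockout liver. There 1.01% of all genes were called higher. In hepatocytes Cebpa, a transcription factor of mature hepatocytes, was called lower in the NEMO knockout, by -0.75 ± 0.12, and in the double knockout, by -0.90 ± 0.12. In total 1 hepatocyte marker was called higher and 2 lower in the NEMO knockout, and 2 lower in the double knockout. The double knockout cultures also had 1 fat cell gene higher (Fabp4) and 1 lower (Car3), 1 neutrophil gene higher (S100a8) and 1 pancreas gene higher (Cela1). Mesothelial, B cell and erythroid genes gave 0 calls by limma in hepatocytes, with 0 or 1 at an unadjusted p under 0.05 in each comparison.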

How the data were processed

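The authors deposited 1 log2 expression value a probe set and array. Per the submitters' processing notes the method was RMA, whose version and options the sources used here leave unstated. Of 35556 probe sets, 21218 had 1 gene symbol in the platform annotation, 1881 had several and 12457 were not listed there. The brightest probe set with 1 symbol stood for each of the 18820 genes, and no filter was applied. Array medians ran from 4.03 to 4.23. There is no read depth, and 3 arrays a group limit the precision.

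Two-sided tests used lmFit and eBayes (trend on) of limma 3.58.1 under R 4.3.3, on the 12 arrays of a tissue or, between tissues, on all 24. The 16 comparisons were each adjusted over all genes. The procedure was tested on simulated data. All 9 members are described, and at most 3 called genes of each other list, by adjusted p. The lists were the 13 of duct, signal, keratin and cell type genes (167 symbols, 149 measured). Members and lists were chosen with earlier results of these data known. Same-numbered arrays were taken as paired where every correlation of their deviations from the group means was above 0.1, which only double knockout and control livers met (0.115, 0.136 and 0.23); the deviations of 3 arrays sum to 0, so these are not independent. Alternatives were quantile normalization, the mean of probe sets, a filter (5 on 3 arrays), no trend, a block, 2 groups alone and left-out arrays. Promoters came from RefSeq (6 of 9 members matched).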

Additional observations from a re-analysis of the deposited data

How the results depend on the processing

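Members called, out of 9, moved as follows. In the NEMO knockout liver (0 with all arrays) they were 1 with the filter on low values, which only 4 of the 9 members passed in liver and 3 in hepatocytes. They were 3 there with the replicate number as a block (Krt8, Krt18 and Muc1, where 4.45% of all genes were called). They were 3 without the 4 arrays in doubt, 4 without all arrays numbered 3, and 0 to 2 with 1 array left out. In the KEAP1 knockout liver (0) they were 2 without the arrays in doubt and 2 without those numbered 3. In the double knockout liver against control (0) they were 3 with the block, 2 without the arrays in doubt, 3 without those numbered 3 and 0 to 2 with 1 left out. Against the NEMO knockout (0) they were 1 without the arrays in doubt, and against the KEAP1 knockout (0) 2 without those numbered 3. In NEMO knockout hepatocytes (2) they were 1 with no intensity trend, with the 2 groups alone, without the arrays in doubt and without those numbered 3, and 1 to 2 with 1 left out. In double knockout hepatocytes they were 3 with the 2 groups alone (Krt23, lower, was added), 3 without those numbered 3 (Sox9 was added) and 2 to 4 with 1 left out against control (2). They were 1 without the arrays in doubt and 0 to 1 with 1 left out against the NEMO knockout (0), and 1 without those numbered 3 and 1 to 2 with 1 left out against the KEAP1 knockout (2). Control hepatocytes against control livers (0) gave 2 without those numbered 3. The block rests on shared numbers alone outside the double knockout and control livers, and it changed no call of a member in the comparisons of hepatocytes. The settings without the arrays in doubt or those numbered 3 were chosen after seeing the data. Without the arrays numbered 3, the share of all genes called was 8.47%, 4.01% and 9.72% in the NEMO, KEAP1 and double knockout livers against control, and 0.255% between double and KEAP1 knockout livers. In hepatocytes it was 3.92% in the NEMO knockout and 8.23% in the double knockout against control, 0.781% between double and KEAP1 knockout, and 4.42% between control hepatocytes and control livers. No member's change reversed while called.

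Genes called in the NEMO knockout liver numbered 251 with all arrays, 23 without NEMO knockout 3 and 1409 without control 3. In the double knockout liver against control they were 1 with all arrays and 2207 without control 3. In hepatocytes with 1 array left out they numbered 807 to 1196 in the NEMO knockout and 1042 to 1946 in the double knockout against control. Between double and NEMO knockout cultures they numbered 293 to 530, and between double and KEAP1 knockout cultures 157 to 571. Shares of all genes with the filter, with no trend or with the 2 groups alone are not given here. Quantile normalization and the mean of probe sets moved no call of a member. Krt7, Krt19, Krt23, Epcam and Muc1 did not pass the filter in liver. Without the arrays in doubt each control and double knockout group held 2 arrays.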
